A study of Homo sapiens with 11 samples.

Results

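The fatty acid uptake and oxidation genes described here are 34 of the 19990 genes in the count table, and they were taken by symbol from that table. No value entered this rule, but earlier results of these data were known when the genes were chosen. All 34 were present and all were tested. The cells were cardiomyocytes grown from passage 63 of WTC11, a widely used human induced pluripotent (iPS) cell line. They came from 1 differentiation directed with the GSK3 inhibitor CHIR99021 and then the Wnt secretion inhibitor IWP2, and every well was afterwards kept in RPMI1640 medium with B27 and insulin. Sequencing of poly(A) RNA covered 4 Day 30 wells, 3 Day 60 wells and 4 Day 113 wells, and the series addresses how such cells mature during long culture. Wells of 1 differentiation of 1 line stood as replicates, so the p-values measure the spread between wells and not between differentiations. The labels name no batch, and effects of collection cannot be told apart from those of culture time.

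Long-chain fatty acids are the main fuel of the adult heart, whereas the fetal heart relies more on glucose and lactate. Lipoprotein lipase releases fatty acids from circulating triglyceride, CD36 and the SLC27A proteins carry them into the cell, FABP3 binds them in the cytosol and the ACSL enzymes activate them to acyl-CoA. The carnitine palmitoyltransferases pass the acyl group into the mitochondrion, where dehydrogenases of different chain length, hydratases, a second dehydrogenase and thiolases shorten it step by step, and the electron transfer flavoprotein carries its electrons to the respiratory chain. PPARGC1A and PPARGC1B are coactivators of the nuclear receptors that switch these genes on.

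The libraries held 24.1 to 34.5 M counts (M, units of 1000000). Summed levels of 13 cardiomyocyte markers, as counts scaled to a library of 1000000 (CPM), were 35300 to 47900 at Day 30, 45200 to 51200 at Day 60 and 38700 to 43700 at Day 113, and none of the 13 was at 0 throughout a day. Markers of other cells moved with the days. The sum over 10 endothelial markers was 79.6 to 120, 51.1 to 83.1 and 243 to 907 CPM on the 3 days, and the sum over 12 hepatocyte and endoderm markers was 533 to 1560, 52.5 to 63.4 and 13.0 to 49.6 CPM. The sum over 7 fibroblast markers was 2560 to 5720, 1660 to 2760 and 4200 to 10100 CPM. The sum over 6 epithelial markers was 2060 to 2980, 1270 to 1460 and 1170 to 1960 CPM, and 5 of the 6 fell from Day 30 to each later day. In bulk RNA, more cells of a type and more RNA per cell cannot be told apart. Day 113 replicate 2 stood apart, because its long genes were lower relative to its short genes by 0.494 on the log2 scale, where this difference was -0.122 to 0.271 in the other 10 libraries. Without this well 10 members still rose from Day 30 to Day 113 and 6 fell, SLC27A1 and ETFB being added and none lost.

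Between Day 30 and Day 113, 10 of the 34 members rose and 4 fell. The 14 called were 41.2% of the members (29.4% higher and 11.8% lower), beside 34.5% of all genes called (17.3% higher and 17.2% lower). The 10 that rose were LPL, FABP3, SLC27A4, SLC27A6, ACSL4, ACSL6, ACADM, ACADSB, HADHB and DECR1, and the 4 that fell were CPT1C, ACADS, ACAA2 and PPARGC1A. The 20 others did not pass the test, CD36, CPT1A, CPT2, ACADVL and all 3 electron transfer genes among them. Calls were made with the quasi-likelihood test of edgeR at a Benjamini-Hochberg adjusted p under 0.05 over all 19990 genes, and every adjusted p below comes from that test. The median log2 fold change of the 34 members was 0.14, beside -0.02 over all genes, and 23 of the 34 values were above 0, beside 48.9% of all genes.

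By interval, 5 members rose and 3 fell from Day 30 to Day 60, where 10.3% of all genes were called, 4.39% higher and 5.91% lower. The 5 were LPL, FABP3, ACSL4, HADHB and HADH, and the 3 were CPT1C, CPT2 and MLYCD. From Day 60 to Day 113, 6 members rose (LPL, SLC27A4, SLC27A6, ACADM, ACADSB and DECR1) and 4 fell (ACADS, HADH, ACAA2 and PPARGC1A), where 24% of all genes were called, 12.9% higher and 11.1% lower. The member medians were 0.12 and 0.01 in the 2 intervals, beside -0.01 and 0.00 over all genes. The intervals share the Day 60 wells, so a high or low Day 60 value enters both. Non-overlapping wells were seen for 12 members in the first interval and 11 in the second, where 24.8% and 30.6% of all genes did not overlap. From Day 30 to Day 113 it was 14 members, where the background was 35.1%.

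**Figure D1:**
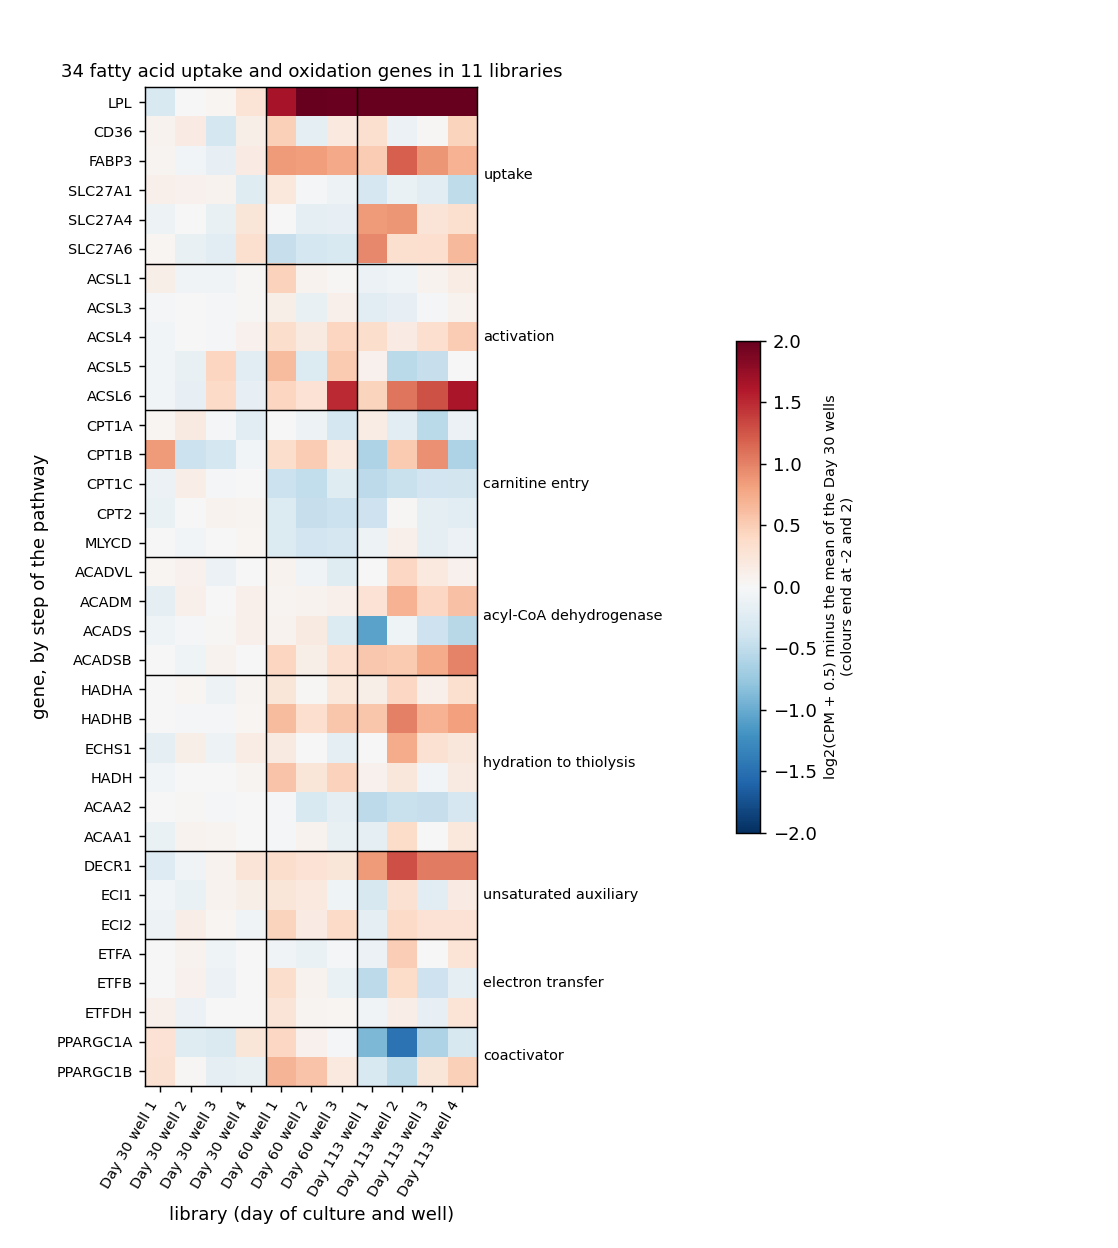
Level of the 34 genes (rows, grouped by step of the pathway) in the 11 libraries (columns), as log2(CPM + 0.5) minus the mean of the 4 Day 30 wells. LPL is above the Day 30 mean in all Day 60 and Day 113 wells, and PPARGC1A is below it in all Day 113 wells; ACSL5, ACSL6 and CPT1B rest on few counts.

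LPL (chromosome 8, 19901717 to 19967259, plus strand, GENCODE 29 on GRCh38), which encodes the lipase that frees fatty acids from lipoproteins, rose more than any other member in each interval among those with over 5 CPM on some day. Its levels were 0.993, 1.33, 1.38 and 1.72 CPM in the Day 30 wells. They were 5.23, 7.89 and 6.75 CPM in the Day 60 wells and 73.8, 42.7, 58.5 and 42.1 CPM in the Day 113 wells. Each later day lay above all wells of the earlier ones. Mean LPL was 1.36 ± 0.297 CPM (SD, n = 4) at first, then 6.62 ± 1.33 (SD, n = 3), and finally 54.3 ± 15.1 (SD, n = 4). In the first interval the log2 fold change was 2.28 ± 0.24 (SE, adjusted p 2.4e-05), in the second 3.04 ± 0.23 (SE, adjusted p 8.8e-07), and over the whole course 5.31 ± 0.24 (SE, adjusted p 3.9e-10). The 2 intervals differed by 0.76 ± 0.40 (SE), which did not pass (adjusted p 0.26).

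Other cell types also express LPL, adipocytes and macrophages above all. Of 6 macrophage markers 3 were in the table, with a summed level of at most 4.94 CPM at Day 30, 1.37 at Day 60 and 3.86 at Day 113. Of the adipocyte markers other than LPL, PLIN1 was in the table, at no more than 0.888 CPM in any library. The 10 endothelial markers all rose from Day 60 to Day 113 and none of them rose from Day 30 to Day 60, the interval in which LPL had already risen. Among the Day 113 wells, replicate 1 held the highest LPL level and the highest endothelial sum (907 CPM), and replicate 4 the lowest of both (42.1 and 243 CPM). The fibroblast sum had the same order over these wells, from 10100 CPM in replicate 1 to 4200 CPM in replicate 4. The part of these cells in the LPL levels was not tested. GPIHBP1, the protein that anchors lipoprotein lipase on capillary endothelium, is named here after its values were seen: it was at 0 in the 3 Day 60 libraries, at most 0.334 CPM at Day 30, and 6.09, 0.90, 2.82 and 1.04 CPM in the Day 113 wells.

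**Figure D2:**
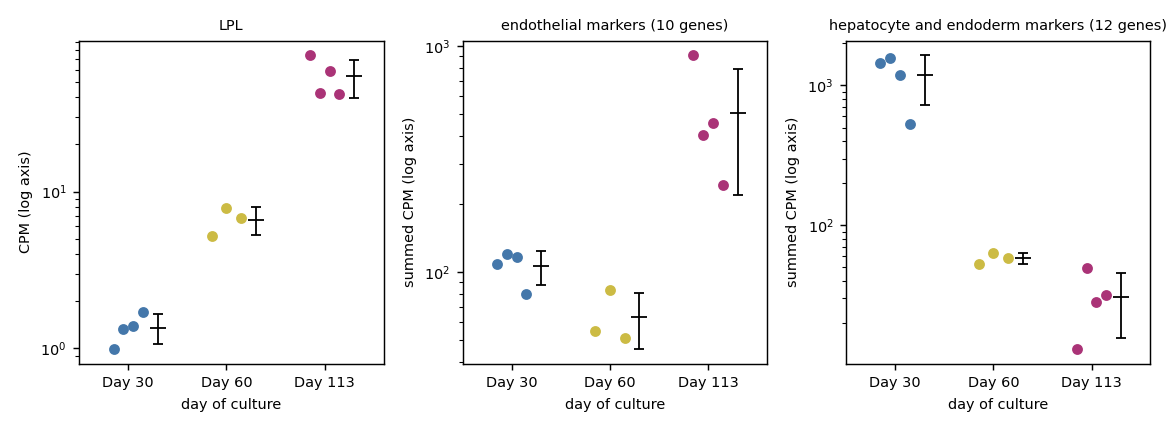
CPM of LPL (left) and summed CPM of 10 endothelial (middle) and 12 hepatocyte and endoderm markers (right) in each well by day, all on log axes, with points for wells and bars for mean and SD. LPL is higher at Day 60 than at Day 30, while the endothelial sum is higher at Day 113 only and the hepatocyte and endoderm sum falls from Day 30.

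FABP3 (chromosome 1, 31365625 to 31376850), the heart fatty acid binding protein, had the highest level per kilobase of all members on each day, whichever transcript length was used. On the principal transcript, the Day 30 wells averaged 349 ± 33.99 CPM per kb (SD, n = 4), Day 60 gave 614 ± 20.2 (SD, n = 3) and Day 113 gave 624 ± 131 (SD, n = 4). Its levels were 262, 244, 224 and 282 CPM in the Day 30 wells and 456, 452 and 429 CPM in the Day 60 wells. The Day 113 wells held 357, 579, 465 and 408 CPM and spanned the whole Day 60 range. In the first interval FABP3 rose by 0.82 ± 0.14 (SE, adjusted p 0.0011), and the second gave 0.02 ± 0.14 (SE, adjusted p 0.93). The intervals differed by -0.79 ± 0.24 (SE, adjusted p 0.046), and this call was lost when any of 8 wells was left out, with adjusted p-values up to 0.14.

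Of the SLC27A fatty acid transport proteins, which also activate very long chains, SLC27A6 was the most abundant per kilobase on each day. SLC27A6 (chromosome 5, 128538013 to 129033642), a form known from heart, was at 74.9, 66.3, 63.3 and 91.1 CPM in the Day 30 wells. It was at 53.2, 57.2 and 58.9 CPM at Day 60 and at 143, 91.0, 92.6 and 115 CPM at Day 113. The Day 60 wells lay below all others, and Day 30 replicate 4 lay within the Day 113 range. In the first interval its value was -0.39 ± 0.16 (SE, adjusted p 0.14), and in the second it rose by 0.97 ± 0.16 (SE, adjusted p 0.00045). It was the only member with a difference between the intervals above 0 that passed (1.36 ± 0.28 SE, adjusted p 0.0078), and without Day 60 replicate 1 that adjusted p was 0.066. Of all genes 9.34% passed this test, 4.97% above 0 and 4.38% below, and the 2 members below 0 were FABP3 and HADH.

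SLC27A4, which had the lowest level of the 3 per kilobase at Day 30 and Day 60, was at 8.49 to 11.3 CPM at Day 30 and 8.29 to 9.38 CPM at Day 60. The Day 113 wells held 17.4, 17.9, 11.4 and 12.0 CPM, all above both earlier days, and SLC27A4 rose by 0.76 ± 0.20 (SE, adjusted p 0.011) from Day 60. SLC27A1, a transporter of muscle and fat, was at 44.9, 44.4, 44.1 and 35.2 CPM at Day 30, at 48.9, 40.7 and 39.2 CPM at Day 60 and at 33.0, 38.4, 35.7 and 29.2 CPM at Day 113. Its change over the whole course was -0.31 ± 0.12 (SE, adjusted p 0.056) and passed with the well number as a replicate block (-0.31, adjusted p 0.032). This change also passed with DESeq2 (adjusted p 0.047) and upper-quartile scaling (0.033), and without Day 113 replicate 2 (0.027) or Day 30 replicate 4 (0.025), but not in the other refits. CD36, the fatty acid translocase and main sarcolemmal carrier of the adult heart, held 19.1 to 27.5 CPM at Day 30, 21.3 to 34.2 at Day 60 and 22.6 to 33.6 at Day 113. Its ranges overlapped on all days, and its change from Day 30 to Day 113 was 0.17 ± 0.17 (SE, adjusted p 0.47).

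**Figure D3:**
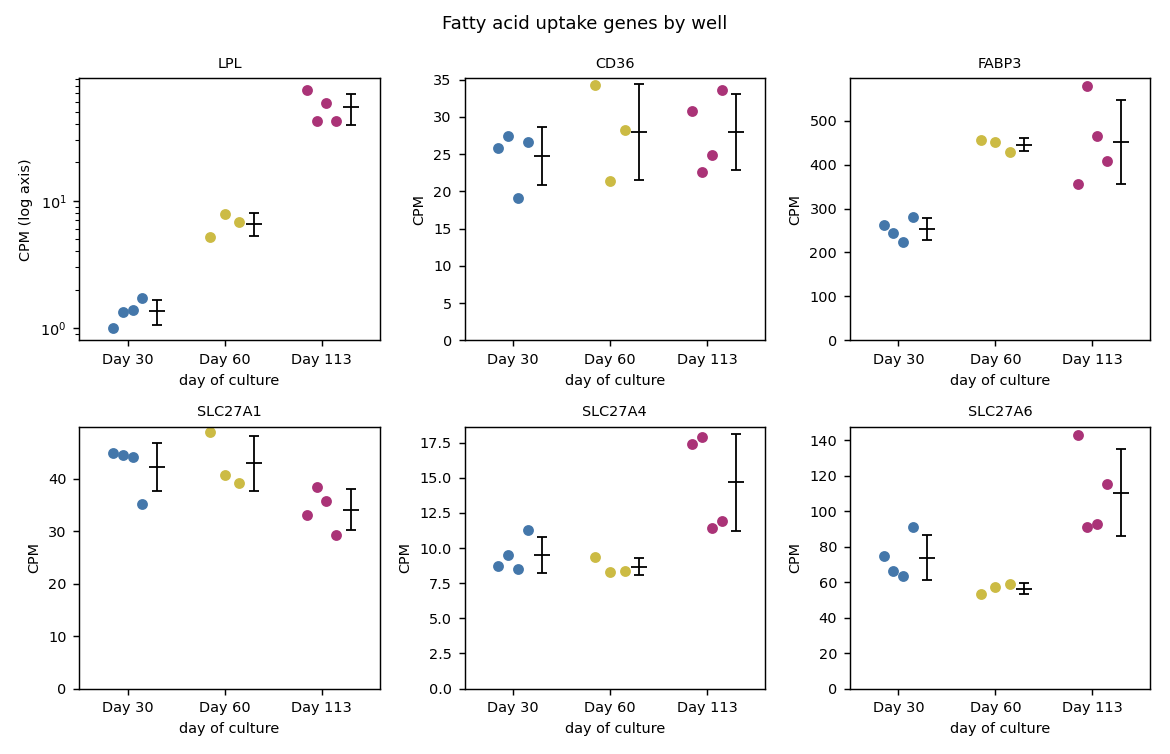
CPM of the 6 uptake genes in each well by day, with bars for mean and SD; the LPL axis is logarithmic and the others start at 0. FABP3 is higher from Day 60 on, SLC27A4 and SLC27A6 are highest at Day 113, and the CD36 wells overlap on all days.

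Among the acyl-CoA synthetases, which trap fatty acids as acyl-CoA, the order per kilobase was ACSL3, ACSL4 and then ACSL1 on each day under both lengths. At Day 30 these stood at 26.3 ± 0.382, 18.4 ± 0.788 and 14.8 ± 0.939 CPM per kb (SD, n = 4). At Day 113, ACSL3 and ACSL4 were at 24.97 ± 2.19 and 23.4 ± 2.31 CPM per kb (SD, n = 4), within 1 SD of each other. ACSL4, which prefers arachidonic acid, was at 94.8 to 104 CPM at Day 30, 112 to 132 at Day 60 and 110 to 140 at Day 113. It rose by 0.35 ± 0.09 (SE, adjusted p 0.0084) over the whole course, and its rise in the first interval (0.33, adjusted p 0.048) was lost when any of 7 wells was left out. ACSL1, the main synthetase of the adult heart, gave 0.01 ± 0.11 (SE, adjusted p 0.94) and ACSL3 gave -0.08 ± 0.09 (SE, adjusted p 0.56).

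ACSL5 and ACSL6 had low counts, 378 and 143 over all 11 libraries, and ACSL5 had 16 to 62 in each library. ACSL6, a brain form, had 1, 0, 7 and 0 counts in the Day 30 wells, 8, 5 and 34 at Day 60 and 9, 18, 30 and 31 at Day 113. A count of 0 allows up to 3 counts, 0.0989 and 0.102 CPM in these libraries, for counting error only. The call for ACSL6 from Day 30 to Day 113 (adjusted p 0.029) was lost when any of 5 wells was left out, with adjusted p-values up to 0.074, and 15.8% of its exon length overlaps other genes.

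At the carnitine entry step none of the 5 members rose in any comparison. CPT1 is the regulated gate of mitochondrial oxidation, with a liver form (CPT1A), a muscle form (CPT1B) and a brain form (CPT1C) that resides in the endoplasmic reticulum. CPT1C stood highest of the 3 per kilobase on each day, at 9.61 ± 0.705 CPM per kb at Day 30, where CPT1A was at 3.75 ± 0.419 (SD, n = 4). CPT1C was at 25.6, 30.6, 27.5 and 28.1 CPM in the Day 30 wells. It was at 20.6, 19.8 and 23.5 CPM at Day 60 and at 19.3, 20.3, 21.3 and 21.5 CPM at Day 113, below every Day 30 well. It fell by 0.44 on the log2 scale over the whole course (SE 0.11, adjusted p 0.0057). CPT1A was at 16.9 to 22.1, 15.2 to 19.6 and 13.3 to 21.7 CPM on the 3 days, and its change was -0.17 ± 0.16 (SE, adjusted p 0.44).

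CPT1B, the form that predominates in adult heart, had 127 counts in all: 23, 2, 3 and 7 at Day 30, 15, 16 and 12 at Day 60, and 0, 16, 33 and 0 at Day 113. Day 113 thus held both the highest count and 2 counts of 0. Of its exon length 66.4% overlaps other genes, most of it the read-through gene CHKB-CPT1B on the same strand, which had 58 counts. Whether reads shared by the 2 genes were counted for either or for neither is not given. The CPT1B values, their low level included, are therefore uncertain. The fitted change of CPT1B from Day 30 to Day 113 was 0.28 ± 1.21 (SE, adjusted p 0.89).

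CPT2, which rebuilds acyl-CoA inside the mitochondrion, and MLYCD, which removes the CPT1 inhibitor malonyl-CoA, had their lowest means at Day 60. CPT2 was at 36.1 to 41.96 CPM at Day 30, 28.6 to 32.7 at Day 60 and 29.6 to 40.2 at Day 113. MLYCD was at 40.2 to 43.1, 32.1 to 34.4 and 36.5 to 45.2 CPM. The falls of CPT2 (-0.40), MLYCD (-0.33) and CPT1C (-0.39) in the first interval had adjusted p-values of 0.044, 0.050 and 0.049. All 3 calls were close to the threshold: they were lost under 11, 16 and 15 of 20 alternatives, with adjusted p-values up to 0.16, 0.15 and 0.18.

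The acyl-CoA dehydrogenases, which open each cycle for chains of a given length, changed in different directions. ACADM, the medium-chain enzyme, was at 57.7, 71.4, 65.9 and 71.6 CPM at Day 30 and at 69.3, 69.7 and 71.0 CPM at Day 60. Its Day 113 wells held 81.0, 108, 88.9 and 99.6 CPM, all above the others, and it rose by 0.50 ± 0.10 (SE, adjusted p 0.0013) from Day 30. ACADSB, which acts on short branched chains, was at 31.2 to 34.8, 35.7 to 44.5 and 47.8 to 66.0 CPM, with no overlap between days. ACADSB rose by 0.72 ± 0.12 (SE, adjusted p 0.00018) over the whole course.

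ACADS, the short-chain enzyme, was at 37.0, 38.0, 39.8 and 41.9 CPM at Day 30, at 40.9, 44.5 and 32.3 CPM at Day 60 and at 18.3, 36.6, 29.1 and 26.5 CPM at Day 113. Every Day 113 well lay below every Day 30 well. It fell by 0.51 on the log2 scale (SE 0.17, adjusted p 0.026). Without Day 113 replicate 1, its lowest well, the change was -0.35 (adjusted p 0.058), and leaving out Day 113 replicate 4 or Day 30 replicate 3 or 4 also ended the call (adjusted p 0.057 to 0.066). ACADVL, the very long-chain enzyme and the most abundant of the 4 per kilobase, was at 188 to 215, 171 to 214 and 205 to 273 CPM and did not pass (0.18 ± 0.10 SE, adjusted p 0.19).

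HADHA and HADHB encode the 2 subunits of the mitochondrial trifunctional protein, which performs the last 3 reactions on long chains, and the genes lie head to head on chromosome 2. In the RefSeq promoter table (GRCh38.p14, 250 bases before to 50 after the start) their windows overlap. The HADHB window (chr2:26244689-26244988, plus strand) is shown because 194 of its 300 bases, in capitals, also belong to the HADHA window on the minus strand (chr2:26244583-26244882), with the 2 starts 307 bases apart.
HADHB: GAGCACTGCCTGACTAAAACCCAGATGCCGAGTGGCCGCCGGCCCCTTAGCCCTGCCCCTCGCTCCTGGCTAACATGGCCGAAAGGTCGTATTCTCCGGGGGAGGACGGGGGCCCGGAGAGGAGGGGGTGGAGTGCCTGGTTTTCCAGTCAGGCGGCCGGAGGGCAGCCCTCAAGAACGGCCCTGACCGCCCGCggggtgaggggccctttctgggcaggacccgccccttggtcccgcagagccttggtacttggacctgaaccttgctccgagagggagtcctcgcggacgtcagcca
HADHB was at 222, 218, 220 and 229 CPM in the Day 30 wells. It was at 345, 279 and 327 CPM at Day 60 and at 328, 449, 361 and 394 CPM at Day 113, and both later days lay above all Day 30 wells. In the first interval HADHB rose by 0.51 ± 0.11 (SE, adjusted p 0.0071), and it rose by 0.78 ± 0.10 (SE, adjusted p 2.9e-05) over the whole course. HADHA was at 297, 304, 277 and 309 CPM at Day 30, at 351, 301 and 344 CPM at Day 60 and at 321, 397, 320 and 370 CPM at Day 113. Its Day 113 wells lay above its Day 30 wells, with a change of 0.25 ± 0.09 (SE) that did not pass (adjusted p 0.056). The HADHA change did pass in 6 of the refits, with DESeq2 (adjusted p 0.028), library totals only (0.03), a filter of at least 1 CPM in at least 3 libraries (0.043) and limma-voom (0.05 after rounding up), and without Day 113 replicate 1 (0.033) or replicate 3 (0.043).

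A log2 ratio of 2 counts in the same library does not depend on scaling, and 6 such ratios were compared over the 3 pairs of days. HADHA to HADHB averaged 0.42 ± 0.06 over the Day 30 wells (SD, n = 4), 0.07 ± 0.04 over the Day 60 wells (SD, n = 3) and -0.12 ± 0.07 over the Day 113 wells (SD, n = 4). No well of one day overlapped another day. The difference between Day 113 and Day 30 was -0.53, with a two-sided exact permutation p of 0.0286, the smallest that 4 wells against 4 allow. The smallest with 3 against 4 was 0.0571, and after adjustment over the 18 tests no ratio went below 0.114, so none passed.

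The other hydration, dehydrogenation and thiolysis genes moved less uniformly. HADH, the short-chain 3-hydroxyacyl-CoA dehydrogenase, was at 78.4, 81.8, 81.1 and 84.9 CPM at Day 30, at 121, 96.9 and 112 CPM at Day 60 and at 86.2, 95.3, 78.6 and 92.6 CPM at Day 113. The Day 60 wells lay above all others. HADH rose by 0.43 ± 0.10 (SE, adjusted p 0.011) and then fell by 0.32 (SE 0.10, adjusted p 0.029), and the intervals differed by -0.75 ± 0.17 (SE, adjusted p 0.015). Leaving out Day 60 replicate 1 gave adjusted p-values of 0.058, 0.14 and 0.10 for these, and leaving out Day 60 replicate 3 ended the last 2 (0.078 and 0.060). The fall of HADH was also lost without Day 113 replicate 1 (0.054) and without Day 113 replicate 3 (0.087).

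ACAA2, the mitochondrial 3-ketoacyl-CoA thiolase, was at 92.8, 95.0, 92.5 and 94.0 CPM at Day 30, at 92.0, 75.9 and 82.7 CPM at Day 60 and at 65.2, 68.8, 67.7 and 73.9 CPM at Day 113. It was lower in every Day 113 well than in any earlier well, and it fell by 0.44 on the log2 scale from Day 30 (SE 0.08, adjusted p 0.00078). The second-interval falls of ACAA2 (-0.28, adjusted p 0.036) and ACADS (-0.51, adjusted p 0.049) and the rise of ACADSB (0.42, adjusted p 0.023) were lost under 7, 11 and 5 of 20 alternatives. ECHS1, the short-chain enoyl-CoA hydratase, was at 82.0 to 103, 80.8 to 105 and 93.03 to 155 CPM, and its change from Day 30 to Day 113 was 0.34 ± 0.14 (SE, adjusted p 0.070). That change passed with library totals only (adjusted p 0.044), with DESeq2 (0.05 after rounding up) and without Day 113 replicate 1 (0.016), but not in the other refits. The highest ECHS1 value was that of Day 113 replicate 2. ACAA1, the peroxisomal thiolase, gave 0.11 ± 0.12 (SE, adjusted p 0.51).

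DECR1 (chromosome 8, 90001405 to 90052092), the dienoyl-CoA reductase needed for unsaturated chains, rose most among the oxidation enzymes of the 34 genes. Its levels were 43.5, 50.04, 54.8 and 62.7 CPM at Day 30 and 67.0, 64.0 and 62.2 CPM at Day 60. The Day 113 wells held 94.6, 128, 108 and 108 CPM, all above the earlier wells. DECR1 rose by 0.77 ± 0.13 (SE, adjusted p 0.00048) from Day 60 and by 1.06 ± 0.12 (SE, adjusted p 5.2e-06) from Day 30, a 2.08-fold ratio of mean CPM. The isomerases for unsaturated chains did not pass: from Day 30 to Day 113, ECI1 gave 0.00 ± 0.13 (SE, adjusted p 0.99) and ECI2 gave 0.20 ± 0.12 (SE, adjusted p 0.21). Without Day 113 replicate 1 that ECI2 change passed (0.32, adjusted p 0.023). From Day 30 to Day 60 ECI2 gave 0.33 ± 0.13 (SE, adjusted p 0.13). This passed without Day 113 replicate 1 (adjusted p 0.043) and with only the 2 days compared (0.025). Of the ECI2 exon length 29.8% overlaps other genes.

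ETFA, ETFB and ETFDH, which take electrons from the acyl-CoA dehydrogenases to ubiquinone, were not called in any comparison. ETFA was at 128 to 143, 123 to 132 and 125 to 191 CPM, and ETFDH at 33.8 to 39.5, 37.8 to 44.1 and 32.6 to 44.4 CPM. ETFB was at 46.4, 86.8, 50.1 and 58.8 CPM at Day 113, where the high value is that of Day 113 replicate 2. Without that well ETFB was lower than at Day 30 (-0.38, adjusted p 0.021), and with it the value was -0.15 ± 0.16 (SE, adjusted p 0.52). The log2 ratio of ETFA to ETFB averaged 1.02 ± 0.02 over the Day 30 wells (SD, n = 4), 0.84 ± 0.25 over the Day 60 wells (SD, n = 3) and 1.37 ± 0.16 over the Day 113 wells (SD, n = 4). The Day 113 ratios lay above all others, with an exact permutation p of 0.0286 against Day 30 (adjusted 0.114).

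**Figure D4:**
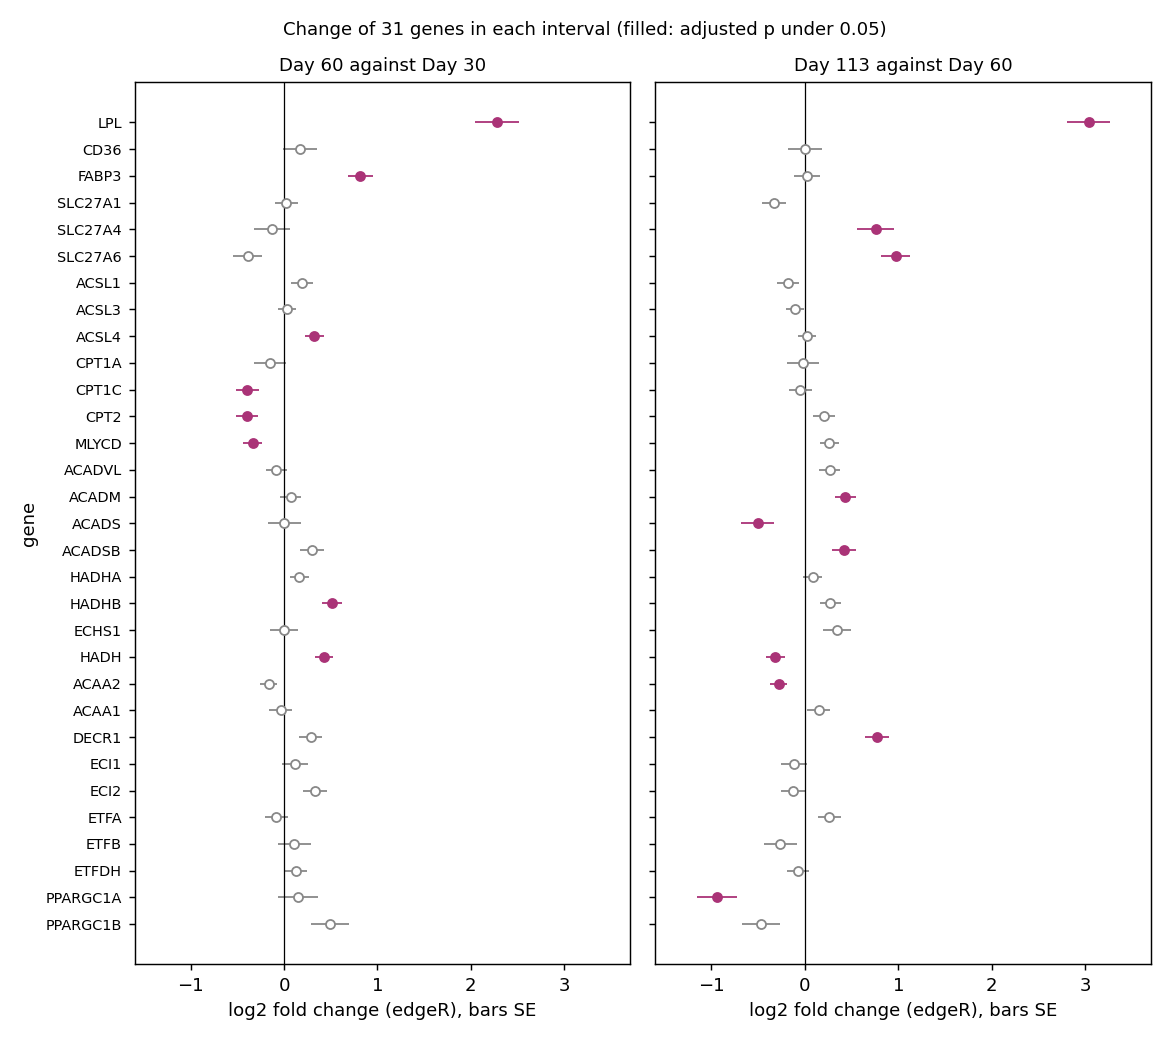
Log2 fold change (edgeR) with its SE for 31 genes in the first (left) and second interval (right), filled where the adjusted p is under 0.05; ACSL5, ACSL6 and CPT1B, with few counts, are not drawn. FABP3, HADHB and HADH are filled on the positive side at left, and SLC27A4, SLC27A6, ACADM, ACADSB and DECR1 at right, while LPL is filled on both sides.

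PPARGC1A, the coactivator best known for driving mitochondrial and fatty acid oxidation genes, went the other way from the members that rose. It was at 99.9, 68.9, 66.7 and 96.3 CPM in the Day 30 wells and at 109, 86.3 and 80.3 CPM in the Day 60 wells. The Day 113 wells held 43.7, 29.1, 52.8 and 65.5 CPM, each below every earlier well. The lowest was that of Day 113 replicate 2, the well with lower long genes relative to its short genes. PPARGC1A fell by 0.95 on the log2 scale from Day 60 (SE 0.21, adjusted p 0.0048) and by 0.80 from Day 30 (SE 0.20, adjusted p 0.0058). Neither call was lost when any 1 well was left out. PPARGC1B was at 30.3 to 42.3, 39.3 to 55.0 and 23.9 to 47.9 CPM and did not pass in either interval (0.49, adjusted p 0.15, and -0.47, adjusted p 0.11). Its lowest value was also that of Day 113 replicate 2. The log2 ratio of PPARGC1A to PPARGC1B averaged 1.25 ± 0.28 over the Day 30 wells (SD, n = 4), 0.92 ± 0.15 over the Day 60 wells (SD, n = 3) and 0.44 ± 0.16 over the Day 113 wells (SD, n = 4), with an exact permutation p of 0.0286 for Day 113 against Day 30 (adjusted 0.114).

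**Figure D5:**
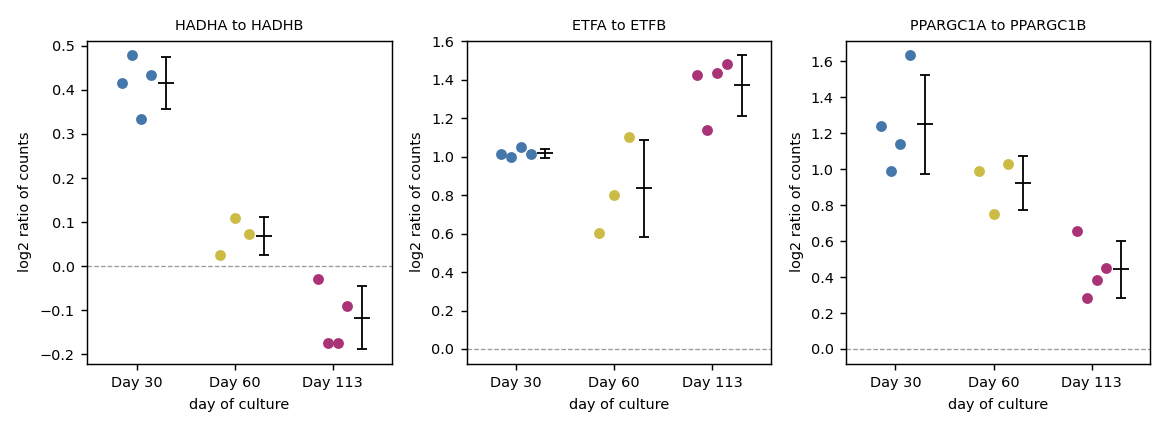
Log2 ratio of counts within each well by day for HADHA to HADHB, ETFA to ETFB and PPARGC1A to PPARGC1B, with bars for mean and SD and a dashed line at equal counts. HADHA to HADHB is lower on each later day without overlap, ETFA to ETFB is highest at Day 113, and PPARGC1A to PPARGC1B is lowest at Day 113.

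The nuclear receptors that work with these coactivators were described together with partner factors and coregulators, in a list of 20 genes, of which 18 were tested. From Day 30 to Day 113 none of the 18 rose and 6 fell, where 17.3% of all genes rose and 17.2% fell. PPARA, the fatty acid receptor of the heart, was at 83.7 to 99.5, 89.8 to 108 and 50.7 to 72.8 CPM and fell by 0.55 (SE 0.12, adjusted p 0.0047) from Day 60. ESRRG, an estrogen-related receptor of oxidative muscle, was at 71.4 to 83.4, 62.6 to 94.4 and 39.6 to 50.4 CPM and fell by 0.76 (SE 0.13, adjusted p 0.0006) from Day 60. The lowest values of PPARA and ESRRG were those of Day 113 replicate 2. RXRG fell by 1.52 (SE 0.17, adjusted p 5.2e-06), ESRRB by 2.14 (SE 0.41, adjusted p 0.00082) and PPARG by 1.86 (SE 0.67, adjusted p 0.043) from Day 30. The sixth was HNF4A, which is also among the hepatocyte and endoderm markers and went from 5.59 ± 1.72 CPM (SD, n = 4) to 0.0571 ± 0.114 (SD, n = 4). PPARG was low as well, at 3.51 to 5.27, 0 to 0.568 and 0.120 to 1.79 CPM on the 3 days. Its fall came by Day 60 (-3.51 ± 0.84 SE, adjusted p 0.013), and the second interval gave 1.66 ± 0.80 (SE, adjusted p 0.15). The intervals of PPARG differed by 5.17 ± 1.54 (SE, adjusted p 0.046). PPARD rose by 0.71 up to Day 60 (SE 0.11, adjusted p 0.00093) and then fell by 0.50 (SE 0.11, adjusted p 0.0054). RXRA fell by 0.35 (adjusted p 0.040) to Day 60 and then rose by 0.31 (adjusted p 0.037), and ESRRA did not pass in any comparison.

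The genes known to respond to PPAR ligands numbered 12 among those tested, with CPT1A counted among them. From Day 30 to Day 113, where 17.3% of all genes rose and 17.2% fell, none of the 12 rose and 4 fell. They included UCP2, a mitochondrial carrier, which was at 12.4 to 19.1 CPM at Day 30 and 5.48 to 8.02 CPM at Day 113 (-1.14 ± 0.18 SE, adjusted p 0.00017). ANGPTL4, a secreted inhibitor of lipoprotein lipase, was at 6.94 to 15.4, 5.99 to 16.5 and 4.89 to 6.39 CPM and fell by 1.13 (SE 0.29, adjusted p 0.006) from Day 30. The median of the list was -0.23, beside -0.02 over all genes.

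The neighbouring steps of the pathway were described from lists outside the 34 genes, for Day 113 against Day 30. Over all genes 17.3% rose and 17.2% fell in that comparison, the background for each of these lists. A list count near these shares says nothing particular about its step. Of 7 genes of carnitine supply and shuttle, 1 rose and none fell; it was ALDH9A1, an enzyme of carnitine synthesis (0.46 ± 0.09 SE, adjusted p 0.00094). Of 14 other carriers and binding proteins, 4 rose and 3 fell. CAV1, the caveolin of fatty acid-rich membrane domains, rose in both intervals, from 44.1 to 64.0 CPM at Day 30 through 108 to 149 at Day 60 to 211 to 220 CPM at Day 113 (2.01 ± 0.12 SE, adjusted p 1.3e-08). CAV1 is also abundant in endothelium and fibroblasts, whose summed markers are given above, and their part was not tested. DBI, the acyl-CoA binding protein, rose by 0.85 ± 0.13 (SE, adjusted p 0.00012). LMF1, which matures lipoprotein lipase in the endoplasmic reticulum, was at 30.6 to 36.1 CPM at Day 30 and 21.2 to 25.1 CPM at Day 113 and fell by 0.51 (SE 0.10, adjusted p 0.0011). LIPG, the endothelial lipase, fell by 2.09 (SE 0.36, adjusted p 0.00033).

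Of 21 other mitochondrial oxidation enzymes 7 rose and 3 fell, and of 16 peroxisomal genes 5 rose and 1 fell. ACAT1, a thiolase of ketone body and isoleucine breakdown, rose from 39.8 to 49.3 CPM at Day 30 to 83.9 to 128 CPM at Day 113 (1.25 ± 0.12 SE, adjusted p 1.6e-06). ABCD3, a peroxisomal fatty acid transporter, was at 64.8 to 77.3, 89.9 to 102 and 165 to 179 CPM with no overlap and rose by 1.24 ± 0.09 (SE, adjusted p 4.7e-08). ACOX2, a peroxisomal oxidase of branched chains, and PHYH, the phytanoyl-CoA hydroxylase, rose by 1.22 and 0.97. Of 9 acyl-CoA thioesterases 4 rose and none fell.

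Of 18 lipid droplet and lipolysis genes 6 rose and 3 fell. G0S2, an inhibitor of the lipase PNPLA2, was at 31.02 to 43.2, 83.6 to 118 and 174 to 355 CPM with no overlap and rose by 2.84 ± 0.19 (SE, adjusted p 3.5e-08). ABHD5, the activator of the same lipase, rose by 1.02 ± 0.12 (SE, adjusted p 1.1e-05). The droplet coat gene PLIN2 fell by 0.85 (SE 0.11, adjusted p 1.8e-05). DGAT1 and DGAT2, which both catalyse the last step of triglyceride synthesis, went opposite ways, at 0.75 ± 0.13 (SE, adjusted p 0.00025) and -1.28 ± 0.15 (SE, adjusted p 1.1e-05). Of 12 genes that set malonyl-CoA and pyruvate use, 3 rose and 1 fell.

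The PPAR and RXR receptors bind as pairs to the DR1 element, the motif AGGTCA repeated with 1 free base between the copies, and the promoter windows of the members were searched for its letters. Of the 34 genes 29 had windows in the RefSeq table, 52 windows in all. The DR1 element with at most 2 mismatches, on either strand, was found in 4 of the 52 windows (7.69%) and in 2.97% of all 35116 windows of 300 bases. LPL, CPT1B, ETFDH, ACAA1 and DECR1 had no window and could not be searched. The 4 matches are shown on the strand that reads as the motif, in capitals, since they are the only ones among the 29 members searched. They lie at chr4:184805655-184805667 (ACSL1), chr5:132012310-132012322 (ACSL6), chr7:80638369-80638381 (CD36) and chr18:49813597-49813609 (ACAA2).
ACSL1: AGGGCACAAGTCA
ACSL6: AGGTCACAGGAGA
CD36: AAGTCAGAGGCCA
ACAA2: AGGTGAAAGGGCA
A match of letters is a description and not a shown binding site. Of these 4 genes ACAA2 fell, ACSL6 rose on few counts, and CD36 and ACSL1 did not pass. The ACAA2 window (chr18:49813484-49813783, minus strand) is printed whole as the one member that fell, with its match in capitals.
ACAA2: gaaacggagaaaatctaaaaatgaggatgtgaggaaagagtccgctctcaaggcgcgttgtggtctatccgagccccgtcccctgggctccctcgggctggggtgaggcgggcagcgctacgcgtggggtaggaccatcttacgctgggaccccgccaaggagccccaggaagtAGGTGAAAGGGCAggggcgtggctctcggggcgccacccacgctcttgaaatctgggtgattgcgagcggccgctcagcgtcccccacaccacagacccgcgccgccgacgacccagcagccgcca
A single AGGTCA was in 3 of the 52 windows (5.77%, beside 13.8% of all), those of ACSL5 and ACSL6, where the ACSL6 matches are the same 6 bases as part of its DR1 match. The estrogen-related receptor element TCAAGGTCA was in none of the 52 and in 0.353% of all windows. The NRF1 element with at most 1 mismatch was in 1 window, that of ETFB (1.92%, beside 7.35% of all).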

How the data were processed

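The authors deposited raw counts, whole numbers without normalization, in a table of 19990 genes and 11 libraries; reads were aligned with STAR 2.5.3a to hg38 and counted with featureCounts 2.0.3, per the submitters' processing notes. Their roles, the annotation and any strand setting are not given in the sources used here, so overlapping genes are uncertain. The libraries were paired-end 150-bp poly(A) reads, per the labels' protocols. The authors also deposited TPM values. The gene length that count over TPM implies differed between libraries for the same gene (median Spearman rho -0.00159 over 55 library pairs, across genes), so TPM served only as an alternative.

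Counts were fitted with edgeR 4.0.16 in R 4.3.3 (TMM scaling, glmQLFit and glmQLFTest, all 11 libraries, day as the only factor), with Benjamini-Hochberg adjustment within each comparison over 19990 genes. The filterByExpr step (minimum count 10) removed no gene. The biological coefficient of variation was 0.282. SE is the absolute log2 fold change over the square root of F, and CPM used TMM effective library sizes. Levels between genes are CPM per kb of the GENCODE 29 principal transcript, with the length of all exons as the second order. Ratios used a pseudocount of 0.5 and two-sided exact permutation tests (scipy 1.17.1). The fit was tested on simulated counts. Alternatives were other scalings, a stricter filter, robust dispersions, limma-voom (limma 3.58.1), DESeq2 1.42.0, TPM, 2 days only, a replicate block and leaving out each well; filterByExpr and no filter are the same fit here.

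The well numbers are the labels' own. Deviations of same-numbered wells from their day's mean correlated by 0.13 to 0.163 between Day 30 and Day 113, all over 0.1. Between Day 60 and the other days 1 same-numbered pair each fell below 0.1 (0.055 and 0.008). All same-numbered pairs were positive. Differently numbered pairs ran from -0.204 to 0.217 and most were negative, but a few also passed 0.1. They were Day 30 replicate 2 with Day 113 replicate 3 (0.108), Day 30 replicate 3 with Day 60 replicate 2 (0.148) and Day 60 replicate 3 with Day 113 replicate 4 (0.217). The labels do not state that numbers are shared between days, so a pairing of wells is not settled. Day stayed the only factor of the main fit, with the replicate block as an alternative.

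The members and lists were chosen with earlier results of these data known. All members may be named; of each list, up to 3 genes with the largest rise and fall from Day 30 to Day 113 among those called with at least 5 CPM, and the PPAR, ESRR and RXR genes whatever their result. Not every result that this rule selected is reported here.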

Additional observations from a re-analysis of the deposited data

Results flagged for a closer look

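Values of 1 well that stood far from the 3 others of its day were sought for the 34 genes in the groups of 4 wells, Day 30 and Day 113, with Dixon's 95% criterion. SLC27A1 at Day 30 was 35.2 CPM in replicate 4, while the other wells held 44.1 to 44.9 CPM, so the gap took 0.915 of the range. Without that well the SLC27A1 change from Day 30 to Day 113 was -0.38 (edgeR adjusted p 0.025), where it was -0.31 (adjusted p 0.056) with it. ACSL6 at Day 30 was 0.23 CPM (7 counts) in replicate 3, while the other wells held 0 to 0.0382 CPM, a gap of 0.834 of the range. Chance flags about 1 in 20 groups, 3.4 of the 68 examined here, and 2 were found.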

How the results depend on the processing

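Outside TPM, 35 called member results (a gene in 1 comparison) kept their direction under all 695 refits, 21 of them were never lost and 14 were lost somewhere; of 101 results not called, 19 were gained somewhere. Results not called changed sign in 71 refits and kept it in 1909. Under TPM, where implied lengths differ between libraries, 34 called and 76 uncalled values changed sign, 36 and 126 kept it, and no member was called (0 higher and 0 lower in every comparison). With limma on log2(TPM + 1), 0 genes were called in each of the 4 comparisons (1168, 1201, 1440 and 1012 at an unadjusted p under 0.05), and on log2(TPM + 0.1) 10, 0, 39 and 1 (1408, 1459, 1886 and 1235), in the order Day 60 against Day 30, then Day 113 against Day 60, then Day 113 against Day 30, then Difference between the intervals. Members lower at Day 60 than at Day 30 numbered 0 with CPM of at least 1 in at least 3 libraries, with upper-quartile scaling and with the replicate block, and 1 with RLE size factors and with robust dispersions. Members lower at Day 113 than at Day 60 numbered 2 with library totals only and 1 with only the 2 days compared. Members with an interval difference above 0 numbered 2 with DESeq2 and with library totals only. The cause was not tested for these counts.

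Leaving out 1 well gave 1220 to 2618 genes for Day 60 against Day 30 (3 to 6 members higher, 0 to 3 lower), 3317 to 4735 for Day 113 against Day 60 (5 to 9 and 1 to 6), 5657 to 6977 for Day 113 against Day 30 (9 to 13 and 3 to 6) and 643 to 2221 for the contrast Difference between the intervals (0 to 2 and 0 to 3). The lowest first-interval counts came without Day 60 replicate 3 (1220), Day 60 replicate 1 (1259) and Day 30 replicate 2 (1323), and the lowest for the interval difference without Day 60 replicate 1 (643) and replicate 3 (774). With the replicate block, 10 members were higher and 5 lower at Day 113 than at Day 30; besides SLC27A1 no member call changed in that comparison. The block also ended the first-interval falls of CPT1C, CPT2 and MLYCD (adjusted p 0.066, 0.063 and 0.070) and gained PPARGC1A for the interval difference (-1.38, adjusted p 0.0059).

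Ratios that reversed had not passed before, and with so few wells none could have. CPT1B to CPT1A, Day 113 against Day 30, was 0.151 with pseudocount 5, 0.369 without Day 113 replicate 1 and 0.119 without Day 113 replicate 4 (-1.881 to 0.369 leaving out 1 well), against -0.739. ACSL1 to ACSL3 was -1.267, 1.036 and -0.231 on TPM for the 3 comparisons, and 0.027 without Day 60 replicate 1 for Day 113 against Day 60 (-0.188 to 0.027). On TPM, SLC27A6 to SLC27A1 was 3.911 for Day 60 against Day 30, and ETFA to ETFB was 2.583 for Day 60 against Day 30 and -0.7 for Day 113 against Day 60. The replicate count and the low counts of ACSL5, ACSL6 and CPT1B limit what can be detected.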
